A study of Mus musculus with 9 samples.

Results

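The genes described here are 41 components and regulators of the phosphoinositide 3-kinase (PI3K) and mTOR pathway, out of 21887 protein-coding genes in the RefSeq annotation of GRCm38.p6 (the mm10 coordinates). They were chosen by name, without the AKT kinase genes, and all 41 were found in the annotation. A gene was scored as holding a peak when a peak overlapped its annotated span extended by 1 kb on each side by at least 1 bp, and a span extended by 10 kb served as a second window. By textbook role 25 of the genes are activators of the pathway and 14 are inhibitors, while Gsk3a and Gsk3b, kinases that AKT inhibits, were put in neither class. The study asked how DEK, a chromatin-bound protein, and active histone marks are placed in blood stem cells that have or lack DEK.

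All mice were C57BL/6, 12 weeks old (labelled 3 months) and unchallenged. Controls were Dek fl/fl without Cre (fl), so both genotypes carry the floxed alleles, and the mutants were Dek fl/fl,Tie2-Cre (cKO). Tie2-Cre acts in the endothelial and blood lineages, so the deletion in cKO mice is not limited to the sorted cells, and no library of fl or wild-type mice with Tie2-Cre was used here. CUT&Tag, in which an antibody directs a transposase to the DNA beside its target, was run on 2 sorted populations. Haematopoietic stem cells (HSC, about 20000 cells, sorted as Lin- Sca-1+ c-Kit+ CD48- CD150+) gave 3 DEK libraries, all from fl, and 1 H3K9ac library per genotype. LSK cells (about 50000 cells, Lin- Sca-1+ c-Kit+, stem cells with early progenitors) gave 1 H3K27ac and 1 H3K4me3 library per genotype.

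PI3K enzymes phosphorylate a membrane lipid after receptor activation, and the lipid recruits PDK1 and AKT. AKT releases the small GTPase RHEB from the TSC1 and TSC2 complex, and RHEB then switches on mTOR complex 1 at the lysosome, where RAG GTPases report amino acids. In haematopoietic stem cells the pathway is known for its part in leaving quiescence, and the loss of its brakes is known to exhaust these cells. H3K4me3 and H3K9ac mark active promoters, and H3K27ac marks active promoters and enhancers.

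The lists held 2054, 2111 and 6147 DEK peaks, 10494 fl and 16331 cKO peaks of H3K27ac, 10514 and 10159 of H3K4me3, and 2172 and 3431 of H3K9ac. They carry no read counts, so depth is unknown, and with 1 library per genotype and mark no difference between genotypes was tested. The height, fold enrichment and q-value of a peak are the authors' own values. Peaks were ranked within a list by the authors' p-value, and a low top share means a strong peak. The q-value also set a stricter alternative limit and entered the check for irregular rows. Where a gene held several peaks in a list, the width and rank given are those of the strongest unless stated. Ranks in lists of different length are set side by side without a reading of change. Of 10 HSC and LSK marker genes, 8 had an H3K4me3 peak in fl and 7 in cKO, among them Kit, Flt3 and Mecom in both. Ly6a and Slamf1 had none in either genotype, and Procr had one only in fl. H3K27ac peaks lay in 2 of these 10 genes in fl and in 7 in cKO. None of 7 mature myeloid markers had H3K27ac in either genotype, and lymphoid markers had 0 of 6 in fl and 2 of 6 in cKO (Cd4 and Cd79a). Endothelial markers had H3K27ac in 1 of 4 genes in fl (Tek, which encodes TIE2) and in 2 of 4 in cKO (Kdr and Tek). Stromal markers had it in 1 of 4 in fl (Lepr) and 2 of 4 in cKO (Cxcl12 and Lepr), and erythroid markers in 1 of 4 in each (Klf1). H3K4me3 lay at 1 of 7 mature myeloid markers in each genotype (Mpo in fl, S100a8 in cKO). Erythroid markers had H3K4me3 at 2 of 4 in fl and 3 of 4 in cKO, and stromal markers at 1 of 4 in fl (Pdgfrb) and 0 in cKO. Lymphoid and endothelial markers had no H3K4me3.

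For H3K27ac, every pathway gene with a peak in fl LSK cells also had one in cKO, and a further set had one only in cKO. The mark was found in both genotypes at 23 of the 41 genes (56.1%), against 27.9% of all protein-coding genes. It was found only in cKO at 15 genes (36.6%), against 22.6% of all genes, and only in fl at 0 genes, against 0.772%. The 15 genes were Tsc1, Tsc2, Rheb, Rictor, Akt1s1, Deptor, Depdc5, Gsk3a, Irs1, Irs2, Pik3c3, Pik3ca, Pik3cb, Prkaa1 and Sesn3. The remaining 3 genes, Inpp5d, Nprl2 and Pik3cg, had none in either genotype, against 48.8% of all genes. Most pathway genes carry H3K4me3, so the comparison was repeated among genes with an H3K4me3 peak in fl. There 14 of 39 pathway genes (35.9%) were acetylated only in cKO against 32.1% of all such genes, and 22 (56.4%) in both against 50.4%, so the share found only in cKO lay close to that of other H3K4me3-marked genes.

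The cKO list of H3K27ac is longer than the fl list, and its part in this difference was examined by keeping as many of its strongest peaks as the fl list holds. With lists of equal length 11 of 41 genes remained in cKO only, against 11.6% of all genes. The fl-only set then held 1 of 41, Rps6kb2, against 3.15%. Depdc5, Irs1, Pik3c3 and Pik3ca then left the cKO-only set. Tsc2 (top 63.4% of the cKO list), Prkaa1 (63.8%) and Gsk3a (63.9%) lay just inside the point where the list was shortened, and Pik3ca (65.5%) just outside it. In the 10 kb window 13 of 41 genes had the mark only in cKO, against 22.8% of all genes. It was in both at 26 of 41, against 35.0%. Depdc5 and Gsk3a moved to both there, through peaks close to the starts of the neighbouring genes Prr14l and Zfp526. Within 1 kb of a start site 16 of 41 genes were marked in cKO only, against 21.7% of all genes. In that window 21 of 41 were marked in both, against 22.3%. The count of 16 gained Mtor and Inpp4b and lost Pik3c3. The depth of either library is not known, and the HSC and LSK marker genes also had H3K27ac more often in cKO (7 of 10) than in fl (2 of 10). The part of either in the difference was not tested.

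**Figure D1:**
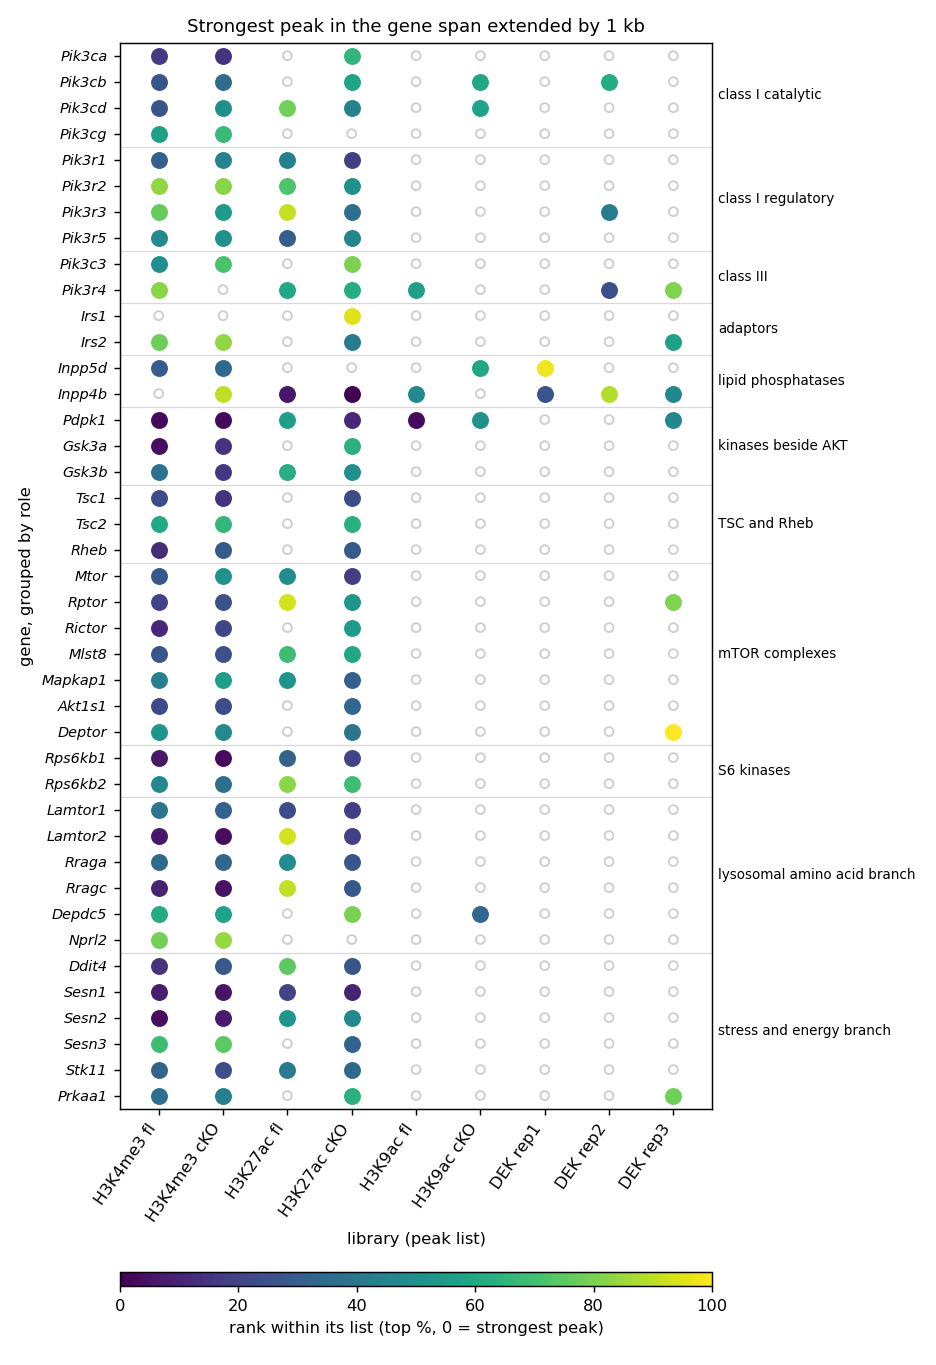
Each row is a pathway gene and each column a peak list. A filled dot marks a peak in the gene span extended by 1 kb, coloured by the rank of the strongest one within its own list (percent, 0 is the strongest), and a small open dot marks no peak. H3K4me3 is filled for all genes except Irs1 (both lists), Inpp4b (fl) and Pik3r4 (cKO), while the H3K27ac fl column has 18 gaps and the cKO column 3.

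Promoter sequences of 5 genes are given as examples of these classes. They are the 3 genes with the highest-ranked H3K27ac among those marked only in cKO (Tsc1, Rheb, Sesn3), Sesn1 with the highest-ranked start-site peak of the genes marked in both, and Inpp5d, which had none. Each is the 250 bases before the listed start in RefSeq (GRCm38.p6), 5′ to 3′ on the gene's strand. Capitals mark matches, on either strand, to 7 motifs described after the sequences. Tsc1 lies at chr2:28640983-28641232, plus strand. Rheb lies at chr5:24842362-24842611, minus strand. Sesn3 lies at chr9:14276051-14276300, plus strand. Sesn1, at the start that carries its strongest peak, lies at chr10:41887189-41887438, plus strand. Inpp5d lies at chr1:87620062-87620311, plus strand.
Tsc1: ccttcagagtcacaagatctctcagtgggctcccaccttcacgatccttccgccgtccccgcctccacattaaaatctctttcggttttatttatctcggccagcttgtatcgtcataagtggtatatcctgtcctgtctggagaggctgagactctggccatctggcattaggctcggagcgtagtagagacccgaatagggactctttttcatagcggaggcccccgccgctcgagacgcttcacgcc
Rheb: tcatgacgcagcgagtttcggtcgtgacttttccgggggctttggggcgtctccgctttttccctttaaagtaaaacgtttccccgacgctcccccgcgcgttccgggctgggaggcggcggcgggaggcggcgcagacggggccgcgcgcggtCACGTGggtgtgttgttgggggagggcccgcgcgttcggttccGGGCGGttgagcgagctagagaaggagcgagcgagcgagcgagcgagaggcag
Sesn3: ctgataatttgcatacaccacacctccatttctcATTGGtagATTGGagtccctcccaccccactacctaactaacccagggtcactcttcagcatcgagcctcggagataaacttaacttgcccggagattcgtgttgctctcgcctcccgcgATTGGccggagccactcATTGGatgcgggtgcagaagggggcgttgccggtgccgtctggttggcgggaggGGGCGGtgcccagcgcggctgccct
Sesn1: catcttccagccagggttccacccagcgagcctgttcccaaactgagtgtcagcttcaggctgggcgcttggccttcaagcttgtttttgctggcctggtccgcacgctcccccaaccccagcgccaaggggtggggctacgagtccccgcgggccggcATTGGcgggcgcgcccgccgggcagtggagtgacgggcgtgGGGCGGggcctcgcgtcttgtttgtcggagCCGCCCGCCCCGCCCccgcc
Inpp5d: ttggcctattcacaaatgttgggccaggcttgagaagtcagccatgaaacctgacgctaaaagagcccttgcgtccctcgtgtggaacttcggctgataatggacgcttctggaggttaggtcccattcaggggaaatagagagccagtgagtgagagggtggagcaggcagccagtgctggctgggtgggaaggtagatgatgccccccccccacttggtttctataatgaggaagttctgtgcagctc

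The motifs searched were GGGCGG (the GC box), CCGGAAG (an ETS core), CACGTG (the E-box), CCAAT (the NF-Y box), TATAAA (the TATA box), TGACGTCA (the cyclic AMP element) and GTAAACA (a forkhead motif), and none of them contains another. The Rheb sequence held 1 GC box and 1 E-box, Sesn3 held 1 GC box and 4 CCAAT motifs, and Sesn1 held 4 GC boxes, overlapping in part, and 1 CCAAT motif. The Tsc1 and Inpp5d sequences held none of the 7. Over the 47 listed starts of 38 pathway genes (Pik3c3, Deptor and Rps6kb2 have none listed), the GC box was present in 61.7% of upstream sequences, against 42.6% of the 21263 listed for all genes. The GC box was present in 11 of the 13 sequences, from 13 genes, of genes with H3K27ac only in cKO (84.6%). It was present in 18 of the 30 sequences of genes with the mark in both (60.0%). These 30 came from 22 genes, so genes with several starts counted more than once. Genes were classed by peaks anywhere in the 1 kb gene window, not at the start. Mtor and Inpp4b, marked at the start only in cKO, thus counted among the genes marked in both. The sequences of all genes were not limited to genes with H3K4me3. CCAAT was present in 44.7% of the pathway's sequences against 35.4% of all, CCGGAAG in 17.0% against 8.98%, CACGTG in 10.6% against 6.63%, and GTAAACA in 6.38% against 2.62%. TATAAA was present in 4.26% against 11.6%, and TGACGTCA in 0 of 47 against 1.92%. Median GC content was 68.0% in the sequences of cKO-only genes, 59.2% in those of genes marked in both and 55.6% in all sequences. The median ratio of observed to expected CpG was 0.884, 0.750 and 0.530 in the same order, and it was 1.35 in Rheb and 0.279 in Inpp5d. These are letter matches within one window and were not tied to binding of any factor.

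The class I PI3K catalytic subunits make the lipid signal, and H3K27ac was present in both genotypes at 1 of these 4 genes and at all 4 regulatory genes among the 41. The difference was not tested. Of the 4 catalytic genes, Pik3ca and Pik3cb had the mark only in cKO, Pik3cd in both and Pik3cg, which encodes the p110gamma subunit found mainly in blood cells, in neither. The Pik3cb peak of cKO (chr9:99139610-99140589) was 980 bp wide and in the top 58.3% of its list. That of Pik3ca (chr3:32397512-32397864) was 353 bp wide, in the top 65.5%. Pik3cg still had an H3K4me3 peak at its start in both genotypes, 503 bp wide in fl and 693 bp in cKO. The 4 regulatory genes were Pik3r1, Pik3r2, Pik3r3 and Pik3r5. A further class I regulatory gene outside the 41, Pik3r6, had H3K27ac only in fl. At Pik3r5, the p101 subunit, the peak was near the same width in both, 376 bp in fl and 377 bp in cKO, in the top 29.5% and 45.4% of the lists. At Pik3r1, which encodes p85alpha, the strongest peak measured 340 bp in fl (chr13:101767905-101768244) and 1200 bp in cKO (chr13:101767425-101768624). A weaker fl peak of 327 bp (chr13:101767365-101767691) lay beside it, partly within the span covered by the single cKO peak. The strongest fl peak was 555 bp wide at Pik3r2 and 514 bp at Pik3r3, both among the 5 widest in fl when each gene is taken at its strongest peak.

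Of the class III genes, which make a different lipid in endosomes and autophagy, Pik3c3 had H3K27ac only in cKO (390 bp, top 80.4%). Its regulatory partner Pik3r4 had it in both, at 405 bp in fl and 399 bp in cKO. The insulin receptor adaptors Irs1 and Irs2, which link receptors to PI3K, both had H3K27ac only in cKO. The Irs2 peak (chr8:11008702-11009696) was 995 bp wide, with a fold enrichment of 6.81 and a −log10 q of 21.6, in the top 41.1%. The Irs1 peak (608 bp, −log10 q of 6.35) was in the top 94.6% of its list, so among the weakest cKO peaks. Irs1 was also the single pathway gene with no H3K4me3 in either genotype.

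The lipid phosphatase genes of the inhibitor class gave opposite pictures. Inpp5d, which encodes SHIP1, had no H3K27ac peak within 10 kb in either genotype. It nonetheless had one of the widest H3K4me3 peaks of the pathway, 1414 bp in both genotypes (chr1:87620407-87621820), in the top 29.2% of the fl list and 33.4% of the cKO list. Inpp4b held the strongest H3K27ac peak of all 41 genes. That peak lay 618320 bp from the start in cKO and 618291 bp in fl, inside the gene, at chr8:81960556-81961162 in fl (607 bp, fold enrichment 14.9, −log10 q 35.8, top 5.96%) and chr8:81960561-81961234 in cKO (674 bp, fold enrichment 18.7, −log10 q 88.5, top 0.276%). A second fl peak, 311 bp wide and in the top 73.2%, lay within the gene at chr8:81911153-81911463. At the Inpp4b start both H3K27ac (chr8:81342344-81342749, 406 bp, top 48.5%) and H3K4me3 (549 bp, top 90.1%) were found only in cKO. Inpp4b was the single pathway gene with H3K4me3 only in cKO.

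The kinases that act beside AKT were all marked in cKO. Pdpk1, which encodes the AKT-activating kinase PDK1, had a start-site peak in both genotypes, 426 bp wide in fl (top 55.9%) and 772 bp in cKO (top 11.1%, chr17:24141089-24141860). Its cKO list held a further peak at the far end of the gene, 127 bp from the start of the neighbouring gene Kctd5. Gsk3b had a peak in both genotypes, 444 bp and 526 bp wide. Gsk3a had one only in cKO (713 bp, top 63.9%, chr7:25237328-25238040), although its fl H3K4me3 peak was among the strongest of the pathway (top 3.71%).

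The genes of the TSC complex and of its target RHEB, the switch ahead of mTOR complex 1, all had H3K27ac only in cKO, as did the adaptors. Each peak had its summit within 301 bp of its gene's start and none had a fl peak in the 10 kb window. At Tsc1 (chr2:28641290-28641861) the cKO peak was 572 bp wide with a fold enrichment of 12.7 and a −log10 q of 30.0, in the top 23.2%, the highest rank among the cKO-only genes. At Rheb (chr5:24841929-24842684) it was 756 bp wide with a fold enrichment of 10.9 and a −log10 q of 27.3, in the top 28.1%. At Tsc2 (chr17:24632328-24632707) it was 380 bp wide with a fold enrichment of 9.90 and a −log10 q of 13.7, in the top 63.4%. All 3 genes had H3K4me3 in both genotypes. Tsc1 measured 843 bp in fl and 866 bp in cKO, Rheb 1254 and 1285 bp, and Tsc2 923 and 383 bp. Tsc2 gave the lowest ratio of H3K4me3 width of the pathway, at 0.415. TSC1 and TSC2 restrain RHEB, so both inhibitors and the activator they act on fell in the same class.

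Of the 7 genes for the mTOR kinase and its complexes, Mtor, Rptor, Mlst8 and Mapkap1 had H3K27ac in both genotypes and Rictor, Akt1s1 and Deptor only in cKO. RICTOR is the scaffold of mTOR complex 2, while PRAS40 (Akt1s1) and DEPTOR inhibit mTOR. Akt1s1 (chr7:44849936-44850411) had a peak of 476 bp with a −log10 q of 25.0, in the top 33.0%. The Deptor peak (chr15:55112378-55112937) was 560 bp wide with a −log10 q of 22.5, in the top 38.8%. The Rictor peak (chr15:6707640-6708622) was 983 bp wide with a −log10 q of 16.6, in the top 54.6%. The call of both genotypes at Mtor rested on its 3′ end. There the fl peak (352 bp) and a cKO peak (549 bp) lay 126 bp and 72 bp from the start of the neighbouring gene Exosc10. At the Mtor start itself the only H3K27ac peak was in cKO (chr4:148448515-148448975, 461 bp, fold enrichment 10.9, −log10 q 28.5, top 25.7%). Rptor, the scaffold of mTOR complex 1, had 318 bp in fl, in the top 93.3% and so near the end of its list, and 624 bp in cKO. Mlst8 had the lowest ratio of widths, 337 bp in fl and 327 bp in cKO, and Mapkap1 had 316 and 591 bp.

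The S6 kinase genes, whose products are direct targets of mTOR complex 1, had H3K27ac in both genotypes. Rps6kb1 measured 418 bp in fl (top 30.9%) and 663 bp in cKO (top 20.7%). Rps6kb2 measured 301 bp and 408 bp, at the annotated end opposite to its H3K4me3 peak. In the amino acid branch at the lysosome, the Ragulator genes Lamtor1 and Lamtor2 and the RAG GTPase genes Rraga and Rragc were marked in both. The Lamtor1 peak was in the top 23.2% in fl (410 bp) and the top 18.4% in cKO (488 bp). The Lamtor2 peaks, 476 bp and 904 bp wide, lay nearer the start of Ubqln4 than that of Lamtor2. Of the GATOR1 genes, which restrain the RAG GTPases, Depdc5 had H3K27ac only in cKO (303 bp, top 79.8%). Nprl2 had none within 1 kb, and its 10 kb window held peaks in both genotypes of which the fl peak in the top 57.3% lay 186 bp from the Rassf1 start.

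The stress and energy branch, which shuts mTOR complex 1 down under hypoxia, DNA damage or low ATP, split within the sestrin family. Sesn1 had 2 H3K27ac peaks in each genotype, 1 at each listed start. The stronger one (chr10:41887254-41887780 in fl) was 527 bp wide in fl (fold enrichment 12.9, top 20.2%) and 643 bp in cKO (fold enrichment 16.2, top 9.40%), the second highest rank of the pathway in both lists. The peak at the other Sesn1 start was 690 bp in fl and 822 bp in cKO. Sesn2 had 422 bp in fl and 723 bp in cKO. Sesn3 was marked only in cKO (chr9:14276062-14276865, 804 bp, fold enrichment 11.0, −log10 q 25.7, top 31.5%). Prkaa1, a catalytic subunit of the energy sensor AMPK, had 2 peaks only in cKO, the stronger at chr15:5143880-5144379 (500 bp, top 63.8%). Stk11, which encodes the AMPK-activating kinase LKB1, had 605 bp in fl, the second widest there when each gene is taken at its strongest peak, and 751 bp in cKO. Ddit4, which encodes REDD1, measured 301 bp in fl (top 75.1%) and 430 bp in cKO (top 26.3%).

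Activators and inhibitors were compared by their counts. In fl, 17 of 25 activators (68.0%) and 5 of 14 inhibitors (35.7%) had H3K27ac, against 28.7% of all genes. In cKO the counts were 24 of 25 (96.0%) and 12 of 14 (85.7%), against 50.5% of all genes. Hence 7 activators (28.0%) and 7 inhibitors (50.0%) were marked only in cKO, against 22.6% of all genes. The 7 inhibitors were Akt1s1, Depdc5, Deptor, Prkaa1, Sesn3, Tsc1 and Tsc2, and the 7 activators were Irs1, Irs2, Pik3c3, Pik3ca, Pik3cb, Rheb and Rictor. Among genes with fl H3K4me3, 6 of 24 activators (25.0%) and 7 of 13 inhibitors (53.8%) were marked only in cKO, against the 32.1% of all such genes given above. One gene moved the inhibitors' share by 7.14 percentage points, and the difference between the classes was not tested.

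The gap between the classes varied with the setting, and the counts were small. With peaks left out that also touch another gene's window, 8 activators (32.0%) and 5 inhibitors (35.7%) were marked only in cKO, against 18.5% of all genes, so the gap nearly closed. There Mtor joined the activators, and Akt1s1 and Tsc2 left the inhibitors. In the same setting 12 activators (48.0%) and 5 inhibitors (35.7%) had H3K27ac in both genotypes, against 20.2% of all genes. In fl only it was at 0 genes of either class. The fl shares there were thus 48.0% and 35.7%, beside 68.0% and 35.7% with all peaks kept. Within 1 kb of a start site the cKO-only counts were 7 activators (28.0%) and 8 inhibitors (57.1%), against 21.7% of all genes. In the 10 kb window they were 7 (28.0%) and 6 (42.9%), against 22.8% of all genes. With lists of equal length they were 4 (16.0%) and 6 (42.9%), against 11.6% of all genes, and the activators lost Irs1, Pik3c3 and Pik3ca. Leaving out the class III genes gave 6 of 23 activators (26.1%), and counting Gsk3a and Gsk3b as inhibitors gave 8 of 16 (50.0%), against 22.6% of all genes. Within the cKO list, the median rank of the genes marked only there was the top 58.3% for activators and 38.8% for inhibitors, against 63.1% for all genes marked only there. H3K4me3 was present in fl at 24 of 25 activators and 13 of 14 inhibitors, against 48.6% of all genes, with median ranks of the top 28.6% and 32.0%.

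**Figure D2:**
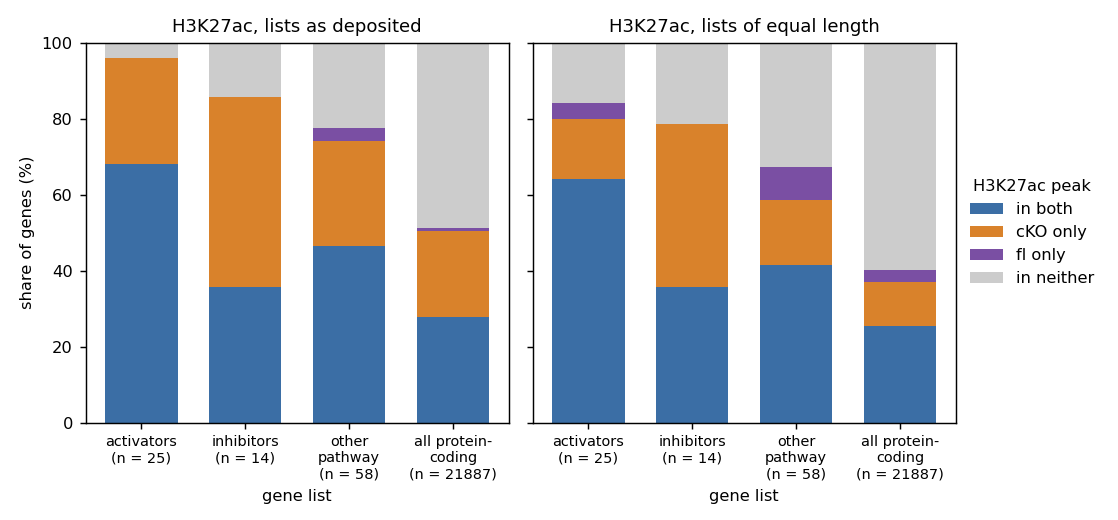
Stacked bars give the share of genes (percent) with H3K27ac in both genotypes, in cKO only, in fl only and in neither, for activators, inhibitors, the other pathway genes and all protein-coding genes, with the lists as deposited (left) and with the cKO list shortened to the length of the fl list (right). The cKO-only part is 28.0% of activators and 50.0% of inhibitors on the left, and 16.0% and 42.9% on the right. For all protein-coding genes it is 22.6% on the left and 11.6% on the right.

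Where H3K27ac was present in both genotypes, the strongest cKO peak was wider in 21 of 23 genes. Over all protein-coding genes with the mark in both it was wider in 5556 of 6105, a similar share. The median ratio of cKO to fl width was 1.36 (range 0.970 to 3.53), and it was also 1.36 over the 6105 protein-coding genes with the mark in both. The median widening in the pathway thus equalled that of genes in general. The highest ratio, 3.53 at Pik3r1, rested on 2 adjacent fl peaks that lay where cKO had a single peak. Joined, they spanned 880 bp, which gave a ratio of 1.36. Among the 23 genes Pik3r1 was the only 1 with several fl peaks to join, and joining left the median at 1.36 and made Rragc, an mTOR-activating RAG GTPase, the highest at 2.27 (445 bp in fl and 1010 bp in cKO). Ratios below 1 were found at Mlst8 and Pik3r4. By strongest peak, the medians were 1.56 in 17 activators and 1.24 in 5 inhibitors. The 1.56 was the ratio of Mtor, from its 3′ peak near the Exosc10 start. With fl peaks matched to the strongest cKO peak and joined, Pik3r1 fell to 1.36 and Pik3cd from 1.66 to 1.54. The middle activator ratio was then the 1.36 of Pik3r1, so the gap between the classes depended on how peaks were matched. Widths ran from 301 to 607 bp in fl and from 327 to 1200 bp in cKO.

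**Figure D3:**
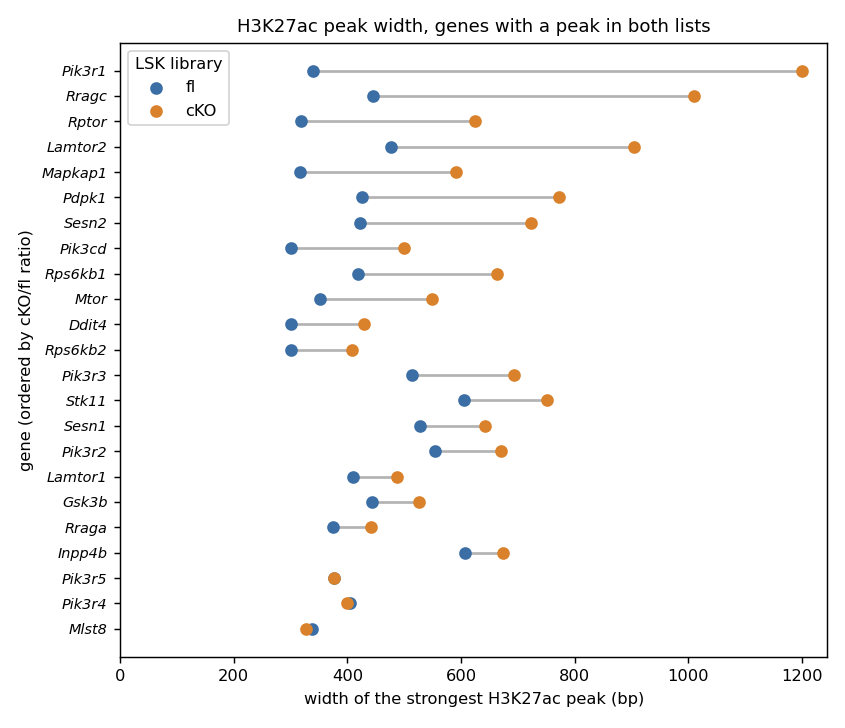
Points give the width (bp) of the strongest H3K27ac peak in the fl (blue) and cKO (orange) library of LSK cells for the 23 genes with a peak in both, ordered by the ratio, and a line joins the values of a gene. The cKO point lies to the right for 21 genes, and Pik3r1 shows the widest gap, from 340 to 1200 bp, with a second fl peak beside the one drawn. Over all protein-coding genes with the mark in both, the cKO peak was wider in 5556 of 6105.

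H3K4me3 was nearly the same set of genes in both genotypes. It was present in both at 38 of 41 genes (92.7%), against 45.6% of all genes, only in cKO at Inpp4b (1.91% of all genes) and only in fl at Pik3r4 (2.97% of all genes). The Pik3r4 peak (chr9:105642990-105643403, 414 bp) was in the top 82.1% of the fl list, and the median rank of all genes marked only in fl was 90.1%. The strongest fl peaks were at Pdpk1 (1050 bp, top 2.50%), Gsk3a (1069 bp, 3.71%), Sesn2 (954 bp, 3.85%), Lamtor2 (6.21%) and Rps6kb1 (1131 bp, 6.62%). In the cKO list Pdpk1 (863 bp, top 2.36%), Rps6kb1 (3.08%) and Lamtor2 (3.19%) led. The widest fl peaks were at Akt1s1 (2104 bp), Lamtor2 (1991 bp), Ddit4 (1756 bp), Pik3r1 (1647 bp) and Inpp5d (1414 bp), and in cKO these measured 1976, 1698, 1500, 1649 and 1414 bp. The 41 genes ranked above the general level, with a median of the top 29.9% in fl and 33.4% in cKO. Over all genes with a peak it was 43.3% and 43.8%. This did not hold for the 58 other pathway genes described at the end. Those with a peak had a median of the top 45.1% in fl and 48.2% in cKO. The ratio of cKO to fl width had a median of 0.947 over 38 of the 41 genes, against 0.957 over all genes with the mark in both, the other way from H3K27ac.

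Both marks lay at the gene starts. Of the peaks in genes with a listed start, 37 of 44 H3K4me3 peaks in fl and 39 of 46 in cKO had their summit within 1 kb of the gene's own start. For H3K27ac the counts were 23 of 28 in fl (82.1%) and 39 of 44 in cKO (88.6%). The median distance of these summits was 228 and 209 bp for H3K4me3 and 189 and 158 bp for H3K27ac, in fl and cKO. Most lay downstream: 31 of 37 and 31 of 39 for H3K4me3, and 16 of 23 and 26 of 39 for H3K27ac. The intragenic Inpp4b peak and the 3′ peaks of Mtor and Pdpk1 were among the exceptions. Summit positions were counted only for the pathway genes. Of all genes, 48.6% had fl H3K4me3 in the 1 kb gene window and 45.7% within 1 kb of a start. For H3K27ac the shares were 28.7% and 22.6% in fl, and 50.5% and 43.9% in cKO. Placement at starts was thus not particular to the pathway.

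**Figure D4:**
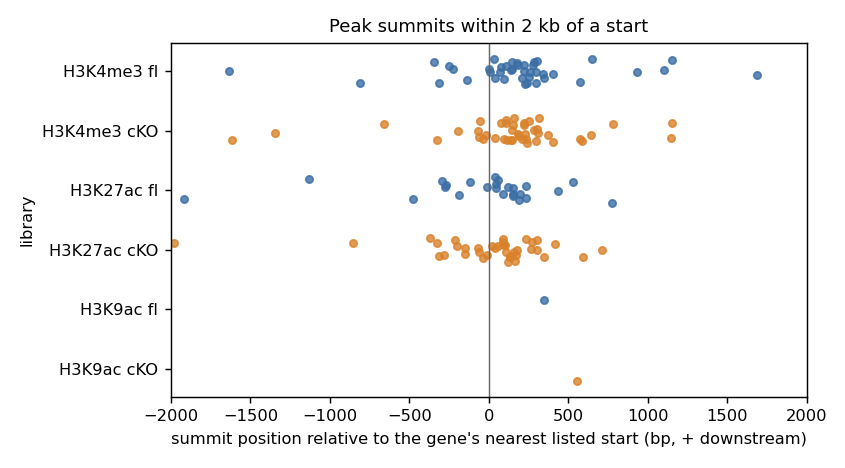
Points give the position of each peak summit (bp) relative to the nearest listed start of its gene, with positive values downstream, for peaks of the pathway genes within 2000 bp, in fl (blue) and cKO (orange); the vertical spread within a library is for legibility. Summits gather just downstream of 0 for H3K4me3 and H3K27ac, and each H3K9ac list has 1 point.

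H3K9ac in HSC was sparse over the pathway. Peaks were found at 3 genes in fl, Inpp4b, Pdpk1 and Pik3r4, against 4.91% of all genes (7.32% of the 41). In cKO they were found at 5 genes, Depdc5, Inpp5d, Pdpk1, Pik3cb and Pik3cd (12.2%), against 7.26% of all genes. The pathway genes are longer, with a median span of 49.8 kb against 17.2 kb of all genes. Per megabase of gene window, H3K9ac peaks in fl numbered 0.889 in the pathway and 1.07 in all genes. In cKO the values were 1.48 and 1.68, so by length the pathway held no excess. The strongest was an fl peak inside Pdpk1 (chr17:24086578-24086771, 194 bp), with a fold enrichment of 17.6 and a −log10 q of 29.4, in the top 3.04% of its list. It lay 54974 bp from the Pdpk1 start and overlapped no peak of any other list. Of the 8 H3K9ac peaks in the pathway genes, 2 overlapped a peak of another list. The cKO peak of Pdpk1 (252 bp, −log10 q 2.39) was elsewhere, 107 bp from the start of Kctd5.

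The other H3K9ac peaks were weak, with −log10 q between 1.64 and 3.95. Those with a summit within 1 kb of the gene's own start were Pik3r4 in fl (275 bp, −log10 q 1.64) and Pik3cd in cKO (213 bp, −log10 q 1.82). The Pik3r4 peak overlapped the H3K27ac peaks of both genotypes and the fl H3K4me3 peak. The fl peak of Inpp4b (172 bp, −log10 q 2.42) and the cKO peaks of Depdc5 (225 bp, 3.95), Inpp5d (188 bp, 1.70) and Pik3cb (190 bp, 1.70) lay inside the genes. The 10 kb window gave 5 of 41 genes in fl, against 6.8% of all genes, and 9 of 41 in cKO, against 10.1%. It added Irs2 in fl, 6641 bp upstream of the start (190 bp, fold enrichment 7.62, −log10 q 7.85), and Prkaa1 in fl (165 bp, −log10 q 1.64), close to the Ttc33 start. In cKO it added Pik3c3 (232 bp), Pik3ca (215 bp), Rragc (386 bp), each with a −log10 q of 1.70, and Rps6kb2 (226 bp, 1.82).

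DEK peaks in fl HSC fell inside 10 of the pathway genes and away from their starts. Replicate 1 had peaks at 2 of 41 genes (Inpp4b and Inpp5d), against 3.56% of all genes. Replicate 2 had peaks at 4 of 41 (Inpp4b, Pik3cb, Pik3r3 and Pik3r4), against 3.71%. Replicate 3 had them at 7 of 41 (Deptor, Inpp4b, Irs2, Pdpk1, Pik3r4, Prkaa1 and Rptor), against 9.02%. The mean share of pathway genes was 10.6% ± 6.14 (SD, n = 3), against 5.43% ± 3.11 (SD, n = 3) of all genes. In all 10 genes had a peak in at least 1 library (24.4%, against 12.9% of all genes), and the same number in the 10 kb window, against 18.3%. Peaks in at least 2 libraries were found at 2 of 41 genes, Inpp4b and Pik3r4, against 2.82% of all genes. No gene had a DEK peak within 1 kb of a start site, against 0.827% of all genes. None of the 15 DEK peaks overlapped a peak of any other list, so Inpp4b and Pik3r4 were hit in more than 1 library at different places. The share of all DEK peaks without such an overlap was not counted, so this is not a trait of the pathway.

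The Inpp4b peaks were 397 and 344 bp wide in replicate 1 (−log10 q 2.28 and 5.33), 356 bp in replicate 2 (1.96) and 195 and 192 bp in replicate 3 (4.32 and 2.98). They lay between 146167 and 689651 bp from the Inpp4b start. At Pik3r4 the peak of replicate 2 (chr9:105645290-105645612, 323 bp, fold enrichment 6.44, −log10 q 5.57) lay 2299 bp from the start and that of replicate 3 (171 bp, −log10 q 2.04) 4379 bp from it. The 2 peaks lay further apart than the width of either. The single-library peaks were at Inpp5d (381 bp, −log10 q 1.98) in replicate 1 and at Pik3cb (333 bp, 3.13) and Pik3r3 (383 bp, 4.11) in replicate 2. Those of replicate 3 were at Pdpk1 (455 bp, 4.40), Irs2 (175 bp, 3.38), Prkaa1 (171 bp, 2.40), Rptor (173 bp, 2.04) and Deptor (173 bp, 2.04). Over the 15 peaks fold enrichment ran from 3.55 to 6.44 and −log10 q from 1.96 to 5.57, and 2 peaks had a −log10 q of at least 5. No DEK library from cKO cells was analysed here, so the background of the antibody is not known.

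Gene length moved with the presence of a DEK peak. Pathway genes with one had a median span of 91.1 kb (24.2 to 792 kb) and those without one 39.5 kb (1.61 to 218 kb). Over all genes the medians were 91.6 and 14.1 kb. Per megabase of gene window, DEK peaks numbered 1.48 ± 0.784 (SD, n = 3) in the pathway genes and 1.36 ± 0.921 (SD, n = 3) in all genes. Within replicates 1, 2 and 3 the values were 0.889 against 0.816, 1.19 against 0.838 and 2.37 against 2.42. The direction thus differed between replicates. Inpp4b, the longest of the 41 genes, had 2.10 ± 0.727 per megabase (SD, n = 3). Of the 10 genes with a DEK peak, Inpp4b, Pdpk1, Pik3r3, Pik3r4 and Rptor had H3K27ac in both genotypes, Deptor, Irs2, Pik3cb and Prkaa1 only in cKO, and Inpp5d in neither.

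**Figure D5:**
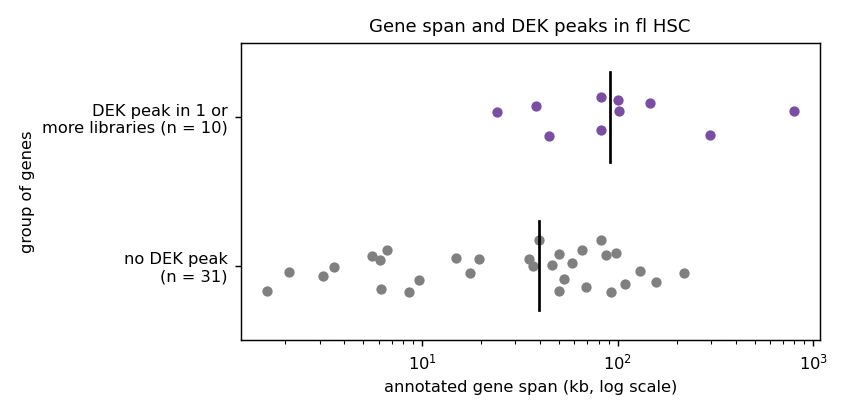
Points give the annotated span (kb, log scale) of each pathway gene with a DEK peak in at least 1 of 3 fl HSC libraries (10 genes) and without one (31 genes); black bars are medians and the vertical spread is for legibility. The medians are 91.1 and 39.5 kb, and the ranges overlap.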

How the data were processed

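The data are CUT&Tag peak lists of 9 libraries, 3 for DEK and 1 per genotype for each of 3 histone marks. The submitters' processing notes name Bowtie2, Picard, MACS2 and mm10. Versions, step order, any control and the calling threshold were not given in the sources used here. Each library has its own list as the authors deposited it, so replicates were not pooled. In each list the authors' score equals 10 times the −log10 p without its decimals. Fold enrichment, as deposited, is the ratio of the peak summit to the caller's background, the −log10 p and −log10 q are the authors' p-value and q-value, and another deposited column gives the distance of the summit from the peak start. No reads are given, so depth is unknown.

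Autosomal, X and Y peaks were kept. Left out were 16 mitochondrial rows and 11 irregular DEK rows that broke the lists' strand mark, score, q-value or order rules, 0 of them within 10 kb of a pathway gene. Row names of DEK replicate 3 carry a Flag stem, those of the other DEK lists a DEK stem, and the labels, which call all 3 DEK, were followed. Where the labels name no animals, the DEK replicates may be technical.

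Gene spans came from RefSeq (GRCm38.p6), and start sites and upstream sequence from its promoter table, which lists 47 starts for 38 of the 41 genes. For Pik3c3, Deptor and Rps6kb2 both annotated ends stood in for the start. Peaks were ranked by p-value within their list. Presence was counted per gene beside all 21887 protein-coding genes, and no test was run, because each mark has 1 library per genotype. Overlap counting was tested on simulated intervals. The genes and lists were chosen with earlier results of these data known. Values are given for genes whose H3K27ac differed in presence (the 10 of highest rank), all with an H3K9ac or DEK peak or a difference in H3K4me3, the 5 widest and 5 highest-ranked fl H3K4me3 and H3K27ac peaks, and genes lacking a mark; others named were chosen after their values were seen. Alternatives were a 10 kb window, a start-site window, a −log10 q of at least 5, peaks lying mostly in the window, peaks shared with another gene left out, irregular rows kept, lists of equal length, other class limits and each DEK replicate left out. Python 3.11.15 with pandas 2.3.3, numpy 2.4.6, scipy 1.17.1 and matplotlib 3.10.9 was used.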

Additional observations from a re-analysis of the deposited data

How the results depend on the processing

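With 1 library per genotype and mark, differences between genotypes could not be tested, and depth limits which weak peaks a list can hold. No paired analysis was possible because each mark has 1 library per genotype and the DEK libraries have no counterpart in cKO. Of 87 recomputed values, 18 moved by more than 1.5 times. The H3K4me3 counts, the H3K27ac counts in both and in cKO only, and the inhibitor count did not move that far under any alternative. With lists of equal length, H3K27ac in fl only was 1 gene, activators in cKO only were 4, and H3K9ac in cKO was found at 3 genes. The H3K9ac count was 5 in fl and 9 in cKO with the 10 kb window, 1 and 1 at start sites, and 1 and 0 with a −log10 q of at least 5. For DEK, the count of genes in any library was 0 at start sites and 2 with a −log10 q of at least 5, and that in at least 2 libraries was 0 under both. Leaving out each DEK replicate gave 5 to 9 genes in any library, the 5 without replicate 3, and 1 to 2 genes in at least 2 libraries, the 1 without replicate 2 or replicate 3. Start sites combined with lists of equal length, a setting chosen after seeing the data, gave 1 gene with H3K27ac in fl only. Joining adjacent fl peaks, also chosen after seeing the data, took the Pik3r1 width ratio to 1.36.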

Other observations

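The other genes of the pathway were taken from a list of 59, of which 58 were found in the annotation. They hold further lipid kinases and phosphatases, the remaining RAG, Ragulator and GATOR genes, AMPK subunits, insulin and growth factor receptors with their adaptors, and direct mTOR targets. H3K27ac was present in both genotypes at 27 of them (46.6%, against 27.9% of all genes), only in cKO at 16 (27.6%, against 22.6%), only in fl at 2 (3.45%, against 0.772%) and in neither at 13 (22.4%, against 48.8%). Among genes with fl H3K4me3, 15 of 53 (28.3%) were marked only in cKO, against 32.1% of all such genes. The cKO-only genes of highest rank were Seh1l (top 16.1% of the cKO list) and Mios (28.5%), both of the GATOR2 complex, Castor2 (29.3%), of the arginine-sensing CASTOR family, Cab39 (35.4%), which encodes a partner of LKB1, and the AMPK subunit gene Prkab1 (44.6%). The genes marked only in fl were Pik3r6, a regulatory subunit gene of p110gamma, and Strada, which encodes another partner of LKB1. H3K4me3 was in both genotypes at 47 genes (81.0%, against 45.6% of all genes). It was only in fl at 6 (10.3%, against 2.97%), which were Castor2, Kptn, Pik3c2a, Pik3r6, Prr5 and Tbc1d7, and only in cKO at Rragd (1.72%, against 1.91%).

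DEK peaks were found at 10 of these 58 genes (17.2%, against 12.9% of all genes). They were Fnip2 in replicate 1, Castor2, Insr and Pik3c2b in replicate 2, and Gab2, Phlpp2, Prkag2, Rps6, Sgk3 and Slc38a9 in replicate 3. None of the 58 had one in at least 2 libraries, against 2.82% of all genes. These 58 genes had a median span of 37.5 kb, against 17.2 kb of all genes. H3K9ac was found at 4 genes in fl (6.90%, against 4.91% of all genes) and 7 in cKO (12.1%, against 7.26%), which were Prkag2 in both genotypes, Cab39l, Gab1 and Pik3c2a in fl, and Eif4ebp2, Flcn, Gab2, Grb10, Pik3c2g and Prr5l in cKO.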
